A study of Mus musculus with 2 samples.

Results

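The integrin subunits, the laminin chains and 4 basement membrane partners of the laminins, the nidogens *Nid1* and *Nid2*, perlecan (*Hspg2*) and agrin (*Agrn*), were examined in the hearts of *H-Bmal1*-/- mice, in which the clock gene *Bmal1* (*Arntl*) was deleted in the heart. Members were taken by gene symbol: 42 genes reported here, of which 40 had a matched probe on the array and 36 were measured, out of 13862 genes measured in all. The samples were 2 RNA pools of left ventricle, each made from 6 male mice aged 12 weeks and collected at ZT 2 (ZT, hours after lights on), and each pool was hybridized to 1 Agilent array. The knockout animals carried a floxed *Arntl* allele (B6.129S4(Cg)-Arntl tm1Weit/J) together with the Myh6-cre transgene, in which αMHC (*Myh6*) regulatory sequence drives Cre. The control animals, called wildtype in the labels, were described in the methods as littermates with the floxed allele and without Cre. The floxed allele was thus common to both pools, and Cre was present in the knockout pool only, with no pool of Cre alone to compare. The αMHC promoter is active in cardiomyocytes, whereas integrins and laminins are also made by the fibroblasts, endothelial cells and leukocytes of the ventricle, which the transgene does not target. With 1 array for each genotype there was no replicate, so no test was made, and each difference is a description of these pools. In RNA from whole tissue, fewer cells of a type and less RNA per cell cannot be told apart. Both pools were also collected at 1 time of day only. A changed level and a shifted daily rhythm therefore cannot be told apart, a limit that the authors state for their arrays.

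Integrins are cell surface receptors made of an alpha and a beta subunit that bind proteins of the extracellular matrix or of other cells and connect them, through adaptor proteins such as talin and kindlin, with the cytoskeleton. Laminins are trimers of an alpha, a beta and a gamma chain that polymerize into the first layer of a basement membrane, the thin matrix sheet around each cardiomyocyte and under the endothelium, and nidogens, perlecan and agrin connect that layer with the type IV collagen network and with cell surface receptors. In the heart, laminin binding by integrins and by dystroglycan anchors the cardiomyocyte membrane and carries force between the contractile apparatus and the matrix.

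The pools differed in the targeted gene as labelled: *Arntl* had a scaled signal of 3.0 in the control and 1.73 in the knockout pool, a log2 ratio of -0.80, from 1 probe. Whether that probe lies in the deleted part is not stated in the sources used here. Scaled signal here is the background-subtracted spot intensity in multiples of the 75th percentile over the spots of that array (171 for the control pool, 190 for the knockout pool), and a log2 ratio is the knockout minus the control pool throughout. The share of spots well above background, a flag set by the scanner software, was 49.4% on the control and 50.03% on the knockout array. On both arrays all 10 cardiomyocyte markers examined were well above background. They had a summed scaled signal of 6762 in the control and 6108 in the knockout pool. Among all measured genes, those past a 1.5-fold limit numbered 857 on the higher and 816 on the lower side. Without scaling of the arrays every log2 ratio was 0.15 higher, and those counts were 1342 and 533.

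Most integrin and basement membrane genes were slightly higher in the knockout than in the control pool, and the 3 lowest ratios were those of laminin chains. Of the 36 measured members, 28 (77.8%) had a log2 ratio above 0, compared with 48.4% of all measured genes, and 8 had a ratio below 0, compared with 51.6%. Their median log2 ratio was 0.16, compared with -0.01 over all measured genes. Few members differed by much. At least 1.5-fold higher in the knockout pool were 4 members (11.1%, against 6.18% of all measured genes), namely *Itgbl1*, *Itgax*, *Itga9* and *Lamc3*. At least 1.5-fold lower were 3 members (8.33%, against 5.89%), and all were laminin chains: *Lama1*, *Lamb3* and *Lama5*. Within 1.2-fold in either direction were 23 members, which is 63.9% of those measured, against 62.2% of all genes. The scanner software attached an error to each spot, and carried through to the log2 ratio it had a median of 0.20 over the members. That error covers the spot alone and says nothing of the difference between animals.

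**Figure D1:**
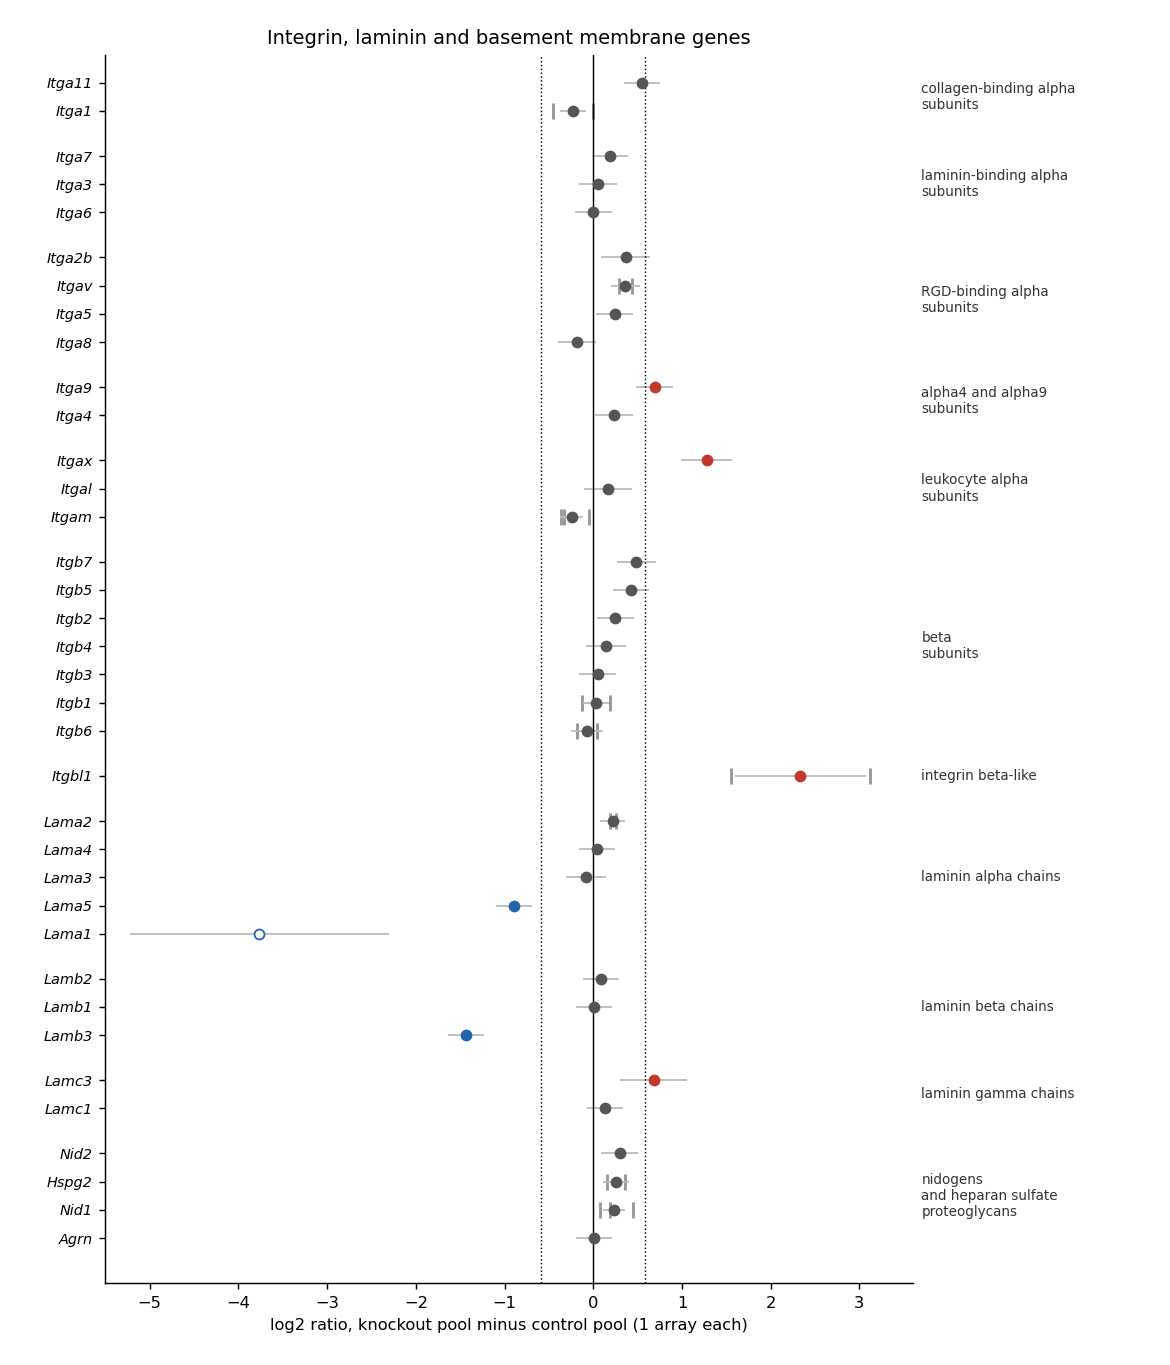
Log2 ratio of each of the 36 measured members, knockout minus control pool (x axis), grouped by role (y axis). Points are gene values, horizontal lines the error that the scanner software gave to the spots, short vertical ticks single probes where a gene had more than 1, dotted lines the 1.5-fold limits, red and blue points the genes past them, and the open point a gene well above background in the control pool only. Most points lie just right of 0, *Itgbl1* is farthest right at 2.34, and the blue points left of the lower limit are all laminin chains.

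The sequences upstream of 4 of the 7 members past the 1.5-fold limits, those with 1 RefSeq window, are shown because BMAL1 acts as a transcription factor that binds, with CLOCK, the E-box letters CACGTG. Each is the 250 bases before the RefSeq transcription start in GRCm38.p6, written 5′ to 3′ on the strand of the gene, with capitals marking the general E-box letters CANNTG. The windows are chr14:123659890-123660139 on the plus strand for *Itgbl1*, chr7:128129300-128129549 on the plus strand for *Itgax*, chr9:118711442-118711691 on the plus strand for *Itga9* and chr2:180225860-180226109 on the minus strand for *Lama5*.
Itgbl1: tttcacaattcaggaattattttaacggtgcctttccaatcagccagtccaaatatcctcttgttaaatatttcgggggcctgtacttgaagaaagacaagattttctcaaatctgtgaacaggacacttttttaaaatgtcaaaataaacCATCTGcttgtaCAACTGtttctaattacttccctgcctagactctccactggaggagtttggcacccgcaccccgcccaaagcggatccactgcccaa
Itgax: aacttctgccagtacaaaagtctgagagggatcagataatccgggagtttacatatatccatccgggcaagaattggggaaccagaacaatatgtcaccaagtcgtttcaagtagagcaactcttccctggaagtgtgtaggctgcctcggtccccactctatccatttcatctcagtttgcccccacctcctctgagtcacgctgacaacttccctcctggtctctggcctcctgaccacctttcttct
Itga9: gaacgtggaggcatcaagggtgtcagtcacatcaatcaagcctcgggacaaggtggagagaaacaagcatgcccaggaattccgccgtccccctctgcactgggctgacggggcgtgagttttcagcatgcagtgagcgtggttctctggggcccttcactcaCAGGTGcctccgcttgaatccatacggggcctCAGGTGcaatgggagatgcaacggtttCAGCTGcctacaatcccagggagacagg
Lama5: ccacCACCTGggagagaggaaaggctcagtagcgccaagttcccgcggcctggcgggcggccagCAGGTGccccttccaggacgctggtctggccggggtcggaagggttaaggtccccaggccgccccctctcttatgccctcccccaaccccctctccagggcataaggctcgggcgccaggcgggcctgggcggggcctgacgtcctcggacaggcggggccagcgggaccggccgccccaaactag
The general letters were found 3 times for *Itga9*, 2 times each for *Itgbl1* and *Lama5*, and not for *Itgax*. The GC content was 42.4% for *Itgbl1*, 50% for *Itgax*, 58.4% for *Itga9* and 72.4% for *Lama5*.

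The table of RefSeq promoters held 32 windows of 28 member genes among 32851 windows, and none for *Lamc3* or *Lama1*. *Lamb3* had 2 windows, which are not printed. The E-box CACGTG, which reads the same on both strands, was in 0 of the 32 member windows and in 6.02% of all windows. The general E-box CANNTG, which contains the former and also reads the same on both strands, was in 24 member windows (75%) and in 66.2% of all windows. Searched on both strands, the D-box letters TTATGNAA, bound by DBP, TEF and related factors, were in 1 member window (3.13%), that of *Itgam*, and in 3.07% of all windows. The letters AGGTCA, the half-site of nuclear receptors including REV-ERBα and the RORs, were likewise in 1 member window, that of *Itgb2l*, and in 14.0% of all windows. An absence says only that those letters are not in these 250 bases.

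Among the integrin genes as a whole, 22 of 28 were measured and 18 had a log2 ratio above 0. At least 1.5-fold higher were 3 (13.6%, against 6.18% of all measured genes), and none was 1.5-fold lower (against 5.89%). The alpha subunits decide which ligand an integrin binds. Of 18, 14 were measured, 11 were above 0, 2 (14.3%) were at least 1.5-fold higher, and the median log2 ratio was 0.21. Of the alpha subunits that bind collagen, *Itga11*, a receptor for fibrillar collagen carried mainly by fibroblasts, had a scaled signal of 2.26 in the control and 3.31 in the knockout pool. Its log2 ratio of 0.55, 1.47-fold, lay just under the 1.5-fold limit, and was 0.70 without scaling. The other one measured, *Itga1*, had scaled signals of 0.915 and 0.78, a log2 ratio of -0.23 averaged over probes at -0.45 and -0.01. The collagen receptor *Itga2* was not well above background on either array, and *Itga10* had no matched probe.

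The alpha subunits that bind laminin differed little between the pools. *Itga7*, the main laminin receptor subunit of adult muscle, had a scaled signal of 63.9 in the control and 72.7 in the knockout pool, and its log2 ratio was 0.19. *Itga3*, a laminin receptor best known in epithelia, had a log2 ratio of 0.06. *Itga6*, which pairs with the beta1 or the beta4 subunit, had scaled signals of 21.9 and 22.0 and a log2 ratio of 0.00. All 3 were thus within 1.2-fold of equality.

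Of the 4 alpha subunits that recognize the RGD motif of ligands such as fibronectin and vitronectin, 3 were higher in the knockout pool. None of the 4 was past 1.5-fold, against 6.18% higher and 5.89% lower among all measured genes. *Itga2b*, which forms the fibrinogen receptor of platelets, had a scaled signal of 0.151 in the control and 0.195 in the knockout pool and a log2 ratio of 0.36. With another background correction, the normexp model, that ratio was 0.06. *Itgav*, the common partner of several beta subunits in receptors for vitronectin and latent TGF-β, also had a log2 ratio of 0.36, with probes at 0.29 and 0.43, and 0.13 with the normexp model. *Itga5*, of the classical fibronectin receptor, had a log2 ratio of 0.24. *Itga8*, a receptor for nephronectin, had the lowest ratio of the group, with a scaled signal of 0.590 in the control and 0.520 in the knockout pool and a log2 ratio of -0.18.

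*Itga9*, which forms with beta1 a receptor for tenascin-C and other matrix ligands and is needed for lymphatic valves, was 1 of the 4 members past the limit on the higher side. Its scaled signal was 4.68 in the control and 7.55 in the knockout pool, 1.61-fold higher, with a log2 ratio of 0.69 and a software error of 0.20. The ratio of *Itga9* was 0.84 without scaling and 0.68 with the normexp model. With 1 probe, it could not differ under another filter or probe choice. Its relative *Itga4*, a receptor for VCAM-1 and fibronectin on leukocytes, had scaled signals of 0.368 and 0.431 and a log2 ratio of 0.23.

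The alpha subunits of leukocytes went different ways. *Itgax*, also called CD11c and carried by dendritic cells and some macrophages, had a processed signal of 20.6 in the control and 55.6 in the knockout array, which is 0.121 and 0.293 after scaling. It was 2.43-fold higher in the knockout pool, with a log2 ratio of 1.28 and a software error of 0.29. Both signals were low, the lowest signal called well above background being 11.1 on either array, and with the normexp model the log2 ratio of *Itgax* was 0.41, under the 1.5-fold limit. *Itgal*, the alpha subunit of LFA-1, had a log2 ratio of 0.17. *Itgam*, also called CD11b and carried by macrophages and neutrophils, had scaled signals of 1.80 and 1.52 and a log2 ratio of -0.24. The 3 probes of *Itgam* gave -0.36, -0.33 and -0.04. They came from processed signals of 68.9 and 59.5, of 39.0 and 34.6, and of 10834 and 11683 in the control and knockout arrays. *Itgax* lies next to *Itgam* in the order of protein-coding genes in GRCm38.p6, with *Itgad* on its other side, and these neighbors thus had ratios of 1.28 and -0.24, while *Itgad* was not well above background. *Itgae* had no matched probe.

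Beside these, 14 of 16 general leukocyte and macrophage markers were measured, 7 above and 7 below 0, with log2 ratios between -0.33 (*Cd4*) and 0.44 (*Fcgr1*). Their median log2 ratio was -0.01, which took the other sign under 5 of the 11 alternatives. Their summed scaled signal was 29.9 in the control and 29.6 in the knockout pool. *Cd8a* was not well above background and *Cd68* had no matched probe. The sum of the measured leukocyte markers in the knockout pool was 0.988 times that of the control. The part of leukocyte number or kind in the ratio of *Itgax* was not tested.

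Of the 8 beta subunits 7 were measured, 6 of them above 0 (against 48.4% of all measured genes), with a median log2 ratio of 0.15. None was past 1.5-fold, against 6.18% higher and 5.89% lower among all measured genes. *Itgb7*, the partner of the alpha4 and alphaE subunits on lymphocytes, had the highest ratio, with a scaled signal of 0.312 in the control and 0.437 in the knockout pool and a log2 ratio of 0.49. It was 0.64 without scaling, past the limit, and 0.26 with the normexp model. *Itgb5*, a partner of alphav in a vitronectin receptor, had scaled signals of 25.1 and 33.7 and a log2 ratio of 0.43, or 0.45 with the normexp model, beside 0.36 and 0.13 for *Itgav*. *Itgb2*, the partner of the leukocyte alpha subunits, had a log2 ratio of 0.25, and *Itgb4*, the hemidesmosome partner of alpha6, had a log2 ratio of 0.15. *Itgb3*, of the platelet fibrinogen receptor, had a log2 ratio of 0.05. *Itgb1*, which pairs with most of the matrix-binding alpha subunits and is the main beta subunit of the cardiomyocyte, had scaled signals of 3.25 and 3.32, a log2 ratio of 0.03 from probes at -0.13 and 0.19. The lowest ratio was that of *Itgb6*, an epithelial partner of alphav, with scaled signals of 0.633 and 0.602, a log2 ratio of -0.07 and probes at -0.19 and 0.05. *Itgb8* was not well above background. The partners of beta1 with higher ratios, *Itga9* at 0.69 and *Itga11* at 0.55, therefore stood beside a beta1 subunit close to 0.

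*Itgbl1*, which encodes a secreted protein with repeats like those of the integrin beta stalk and is not a receptor subunit, had the highest ratio of all members. One of its probes had a processed signal of 362 in the control and 1177 in the knockout array, 2.93-fold higher after scaling, with a log2 ratio of 1.55. A second probe had 2.89 and 27.9, of which only the knockout signal was well above background, and gave 3.12. The mean over both, 2.34 with a software error of 0.74, is therefore partly set by a signal not above background, and was 0.92 with the normexp model. Both probes were higher in the knockout pool, and the gene was past the 1.5-fold limit under the 5 other scalings, the normexp model, both other filters on dim probes and the choice of the brightest probe. *Itgb2l*, the other beta-like gene, was not well above background.

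**Figure D2:**
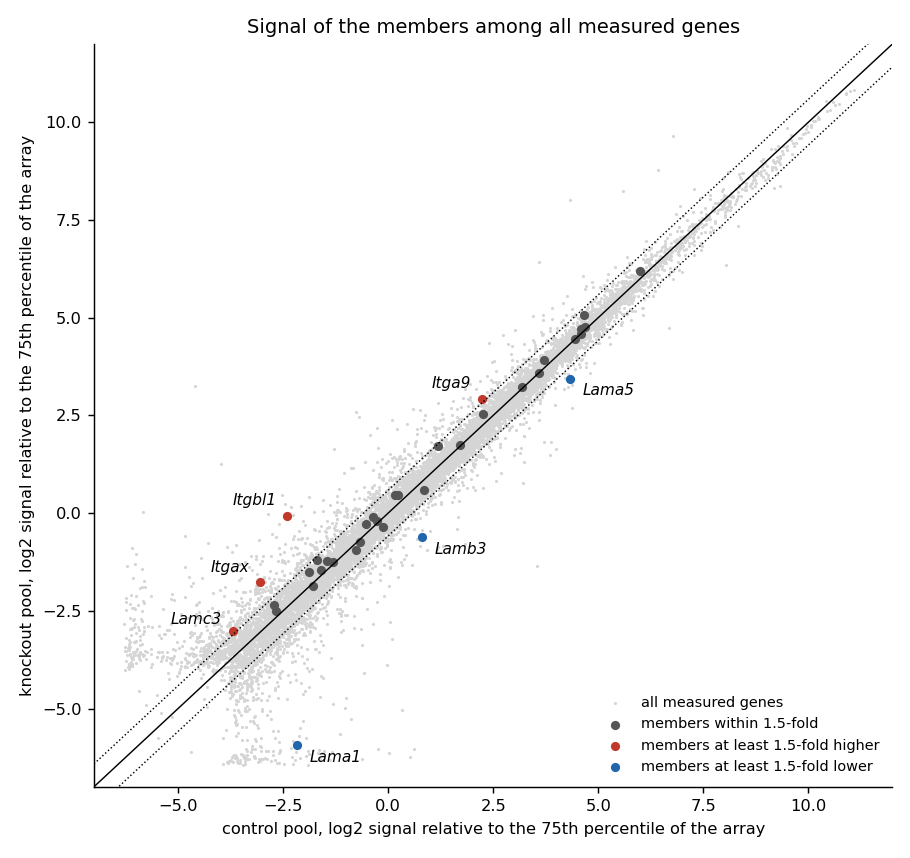
Log2 of the scaled signal in the control pool (x axis) and in the knockout pool (y axis), relative to the 75th percentile of the array, with small grey points for all 13862 measured genes and larger points for the 36 members. The solid line marks equal signals, the dotted lines 1.5-fold, and red and blue points the members past those limits. Most members lie between the dotted lines, and *Lama1*, *Itgax* and *Lamc3* lie in the dim region where the cloud of all genes is widest.

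The 10 laminin chains reported here were all measured, 6 of them above and 4 below 0. Their median log2 ratio was 0.03, and 4 of the 10 were past the 1.5-fold limit. On the higher side was 1 (10%, against 6.18% of all measured genes), and on the lower side were 3 (30%, against 5.89%). Of these 4, *Lamc3* was dim on both arrays, and *Lama1* was dim on the knockout array. The alpha chains carry the sites for cell surface receptors. *Lama5*, of the laminins of vessel walls and epithelia, had a scaled signal of 20.0 in the control and 10.8 in the knockout pool. It was 1.86-fold lower in the knockout pool, a log2 ratio of -0.89 with a software error of 0.20. The ratio of *Lama5*, from 1 probe, was between -0.91 and -0.74 under the other scalings and the normexp model. *Lama1*, the alpha chain of embryonic laminin, had a processed signal of 37.9 in the control array and 3.10 in the knockout array, where it was not well above background. Against the lowest signal called well above background there, *Lama1* was at least 3.80-fold lower. The measured log2 ratio of *Lama1* was -3.76, and -0.80 with the normexp model.

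*Lama2*, the alpha chain of muscle laminin, whose loss causes congenital muscular dystrophy, had the highest ratio of the alpha chains, with a scaled signal of 13.1 in the control and 15.2 in the knockout pool. Its log2 ratio was 0.22, with probes at 0.18 and 0.25. *Lama4*, of endothelial basement membranes and also found around cardiomyocytes, had a log2 ratio of 0.04, and *Lama3*, of epithelial laminin, had a log2 ratio of -0.08. A second probe of *Lama3*, not well above background on either array, was left out, and with no filter on dim probes the ratio of *Lama3* was -0.60.

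Among the beta chains, *Lamb1* and *Lamb2*, which assemble with alpha2, alpha4 and alpha5, had log2 ratios of 0.01 and 0.09. *Lamb2* had the highest ratio, with scaled signals of 25.6 in the control and 27.2 in the knockout pool. *Lamb3*, the beta chain of the laminin that anchors epithelia, had the lowest ratio, with a scaled signal of 1.75 in the control and 0.650 in the knockout pool. The difference was 2.70-fold, a log2 ratio of -1.43 and a software error of 0.21, and the ratio of *Lamb3*, also from 1 probe, lay between -1.44 and -1.05 under the other scalings and the normexp model.

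Both gamma chains reported here had ratios above 0. *Lamc1*, the gamma chain of most laminins, had a scaled signal of 23.9 in the control and 26.2 in the knockout pool and a log2 ratio of 0.13. *Lamc3*, a minor gamma chain, had a processed signal of 13.2 and 23.5, close to background. Its log2 ratio of 0.68 had a software error of 0.38 and was 0.05 with the normexp model.

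Among the laminin trimers, the chains were set side by side. In the epithelial laminin, *Lama3* had a log2 ratio of -0.08 and *Lamb3* of -1.43, so that of these 2 chains 1 was past the lower limit and 1 within both limits. In the laminins of muscle, *Lama2* at 0.22 stood beside *Lamb1* at 0.01, *Lamb2* at 0.09 and *Lamc1* at 0.13. In the laminin of endothelium, *Lama4* at 0.04 stood beside *Lamb1* and *Lamc1*. In the laminins with alpha5, *Lama5* at -0.89 stood beside the same beta and gamma chains. The summed scaled signal of the 10 chains was 118 in the control and 114 in the knockout pool.

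The nidogens, perlecan and agrin were all above 0 (against 48.4% of all measured genes), with a median log2 ratio of 0.25. None was past 1.5-fold, against 6.18% higher and 5.89% lower among all measured genes. *Nid2*, which like *Nid1* links laminin with type IV collagen, had the highest ratio, with a scaled signal of 1.12 in the control and 1.38 in the knockout pool and a log2 ratio of 0.30. *Hspg2*, the heparan sulfate proteoglycan perlecan, had a log2 ratio of 0.26 from probes at 0.15 and 0.36, and *Nid1* had a log2 ratio of 0.24 from 3 probes between 0.07 and 0.45. *Agrn*, a proteoglycan that binds laminin and dystroglycan, had the lowest ratio, with scaled signals of 12.0 and 12.1 and a log2 ratio of 0.01.

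Genes that work with the integrins and laminins were counted in the same way. These lists and the marker lists were chosen with earlier results of these data known. Their shares beside all measured genes are therefore descriptions only. The adaptors and kinases that link integrins with actin showed the smallest differences. Of 34, 31 were measured, 17 above and 14 below 0, with a median log2 ratio of 0.01. None was past 1.5-fold, against 6.18% higher and 5.89% lower among all measured genes. The highest were *Rsu1*, a member of the complex around integrin-linked kinase, at 0.39 and *Kank1*, a talin-binding protein, at 0.29. The lowest were *Parvg*, the parvin of blood cells, at -0.56 and *Tln2*, the talin abundant in heart muscle, at -0.29.

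Integrin ligands were higher in the knockout pool more often than lower. Of 25, 16 were measured, 12 above 0 and 4 below, with a median log2 ratio of 0.46. Past the limit were 4 (25%, against 6.18% of all measured genes) on the higher and 0 (against 5.89%) on the lower side. With no filter on dim probes the median of the ligands was 0.06. *Ccn2*, a matricellular protein also called CTGF, had a scaled signal of 12.0 in the control and 85.8 in the knockout pool and a log2 ratio of 2.83. *Thbs1*, encoding thrombospondin-1, had scaled signals of 0.343 and 1.26, a log2 ratio of 1.88. The other two past the limit were *Postn*, encoding periostin, at 1.87 and *Lgals3*, encoding galectin-3, at 1.63. The lowest were *Madcam1*, an endothelial ligand of alpha4beta7, at -0.78 but measured in the control pool alone and at least 1.34-fold lower, and *Thbs2* at -0.33. *Tnc*, a ligand of alpha9beta1, and *Npnt*, the ligand of alpha8beta1, were not well above background on either array.

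All 8 chains of the type IV, XV and XVIII collagens were above 0, with a median log2 ratio of 0.53. At least 1.5-fold higher were 3 (37.5%, against 6.18% of all measured genes). *Col4a1*, of the most widespread type IV network, had a scaled signal of 18.1 in the control and 28.5 in the knockout pool and a log2 ratio of 0.65, and its partner *Col4a2* had a log2 ratio of 0.58. *Col4a3* was measured in the knockout pool alone and was at least 2.87-fold higher, and *Col4a4* had a log2 ratio of 0.69. The lowest were *Col15a1* at 0.32 and *Col4a5* at 0.42. The laminin chains, the other network of the same membrane, had a median of 0.03, and the difference between the medians was not tested.

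Of 19 other basement membrane genes 15 were measured, 8 above and 7 below 0. At least 1.5-fold higher were 2 (13.3%, against 6.18% of all measured genes), and lower was 1 (6.67%, against 5.89%). Their median log2 ratio of 0.18 took the other sign under 4 alternatives, down to -0.27. The highest were *Frem1*, measured in the knockout pool alone and at least 2.19-fold higher, and *Fbln2*, encoding fibulin-2, at 0.61. The lowest were *Frem2*, a partner of *Frem1* in the membrane under embryonic epithelia, at -0.71 and *Ntn1*, encoding netrin-1, at -0.54.

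Of 19 laminin receptors and linkers that are not integrins, 18 were measured, 10 above and 8 below 0, with a median log2 ratio of 0.05. At least 1.5-fold higher was 1 (5.56%, against 6.18% of all measured genes), and lower were 2 (11.1%, against 5.89%). *Sdc4* and *Sdc2*, syndecans that work with integrins at focal adhesions and at the cell surface, were the highest, at 0.61 and 0.50. The lowest were *Dmd*, encoding dystrophin, at -0.70 and *Bcam*, a receptor for the laminin alpha5 chain, at -0.63. *Bcam* had a scaled signal of 13.2 in the control and 8.49 in the knockout pool, so that it and *Lama5* were both lower in the knockout pool.

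**Figure D3:**
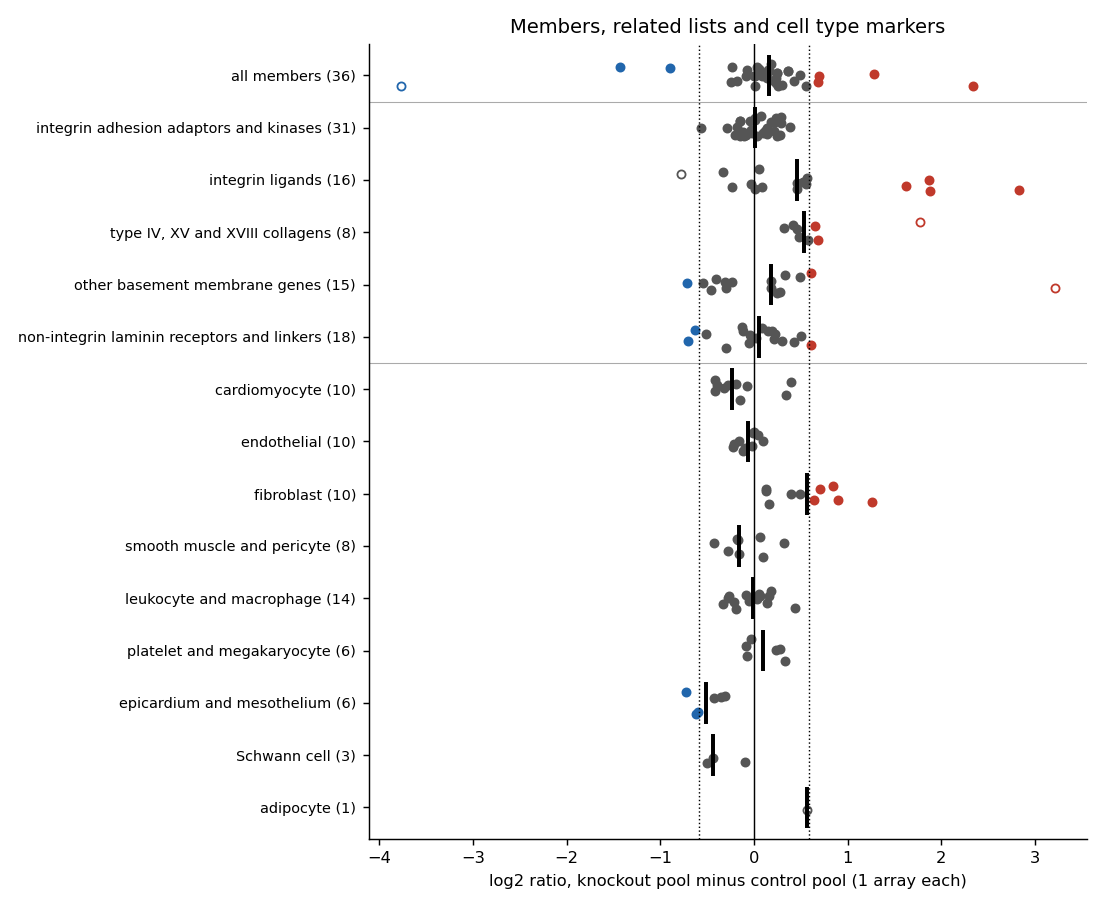
Log2 ratios, knockout minus control pool (x axis), of the measured genes of each list (y axis), 1 point for each gene, open where only 1 array gave a signal well above background, with a bar at the median. The members are shown with the related pathway lists and the cell type markers, and dotted lines mark 1.5-fold. The type IV, XV and XVIII collagens, the fibroblast markers and the 1 measured adipocyte marker lie entirely right of 0. The epicardial markers and the 3 measured Schwann cell markers lie entirely left of 0, and the adhesion adaptors cluster about a median of 0.01.

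Markers of the cell types that make these proteins also differed between the pools. All 10 fibroblast markers were above 0, 5 of them by at least 1.5-fold (50%, against 6.18% of all measured genes). Their median log2 ratio was 0.57, from 0.13 (*Dpt*) to 1.26 (*Mfap5*), and every one was well above background on both arrays. Their summed scaled signal was 314 in the control and 475 in the knockout pool, 1.51 times as high, of which *Dcn* gave 202 and 283. The 5 past the limit, *Col1a1*, *Col1a2*, *Col3a1*, *Lum* and *Mfap5*, all encode matrix proteins. Under the limit were *Pdgfra* at 0.40, *Tcf21* at 0.16 and *Ddr2* at 0.13, which do not, and the matrix genes *Dcn* at 0.49 and *Dpt*. The list is thus largely of the same kind as the collagens and ligands set beside it. All 6 markers of epicardium and mesothelium, the cell layer that covers the heart and expresses epithelial genes, were below 0. At least 1.5-fold lower were 3 of these 6 markers (50%, against 5.89% of all measured genes). The median log2 ratio of the epicardial markers was -0.51, or -0.32 with the normexp model, with a range from -0.72 (*Upk3b*) to -0.31 (*Wt1*). Their summed signal was 9.04 in the control and 6.23 in the knockout pool. The ratios of *Itga11*, of the collagens and of several ligands were above 0, like those of the fibroblast markers. The ratios of *Lamb3*, *Lama5* and *Bcam* were below 0, like those of the epicardial markers. Below 0 were also all 3 measured Schwann cell markers and 8 of the 10 cardiomyocyte markers. Other members known from epithelia, *Lama3* at -0.08, *Itgb6* at -0.07, *Itga3* at 0.06 and *Itgb4* at 0.15, were close to 0. With 1 array for each genotype, a shared sign does not tie genes to a cell type. The part of any cell type in these results was not tested.

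The remaining marker lists were as follows. Of the 10 cardiomyocyte markers 8 were below 0, with a median log2 ratio of -0.23 and a range from -0.42 (*Tnni3*) to 0.39 (*Actn2*). That median was -0.08 without scaling and -0.11 with quantile scaling. Endothelial markers, of which 10 of 10 were measured, ran from -0.22 (*Cdh5*) to 0.10 (*Emcn*), with summed signals of 189 in the control and 185 in the knockout pool. Their median of -0.06 was 0.09 without scaling. Smooth muscle and pericyte markers, 8 of 8 measured, had a median of -0.16, or -0.01 without scaling, and summed signals of 85.1 and 81.6. Of 8 platelet markers 6 were measured, with summed signals of 27.7 and 27.5 and a median of 0.10, beside the 0.36 of *Itga2b* and 0.05 of *Itgb3*. Of 5 Schwann cell markers 3 were measured, all below 0, and summed to 2.33 and 1.83. Of 5 adipocyte markers only *Plin1* was measured, in the knockout pool only.

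**Figure D4:**
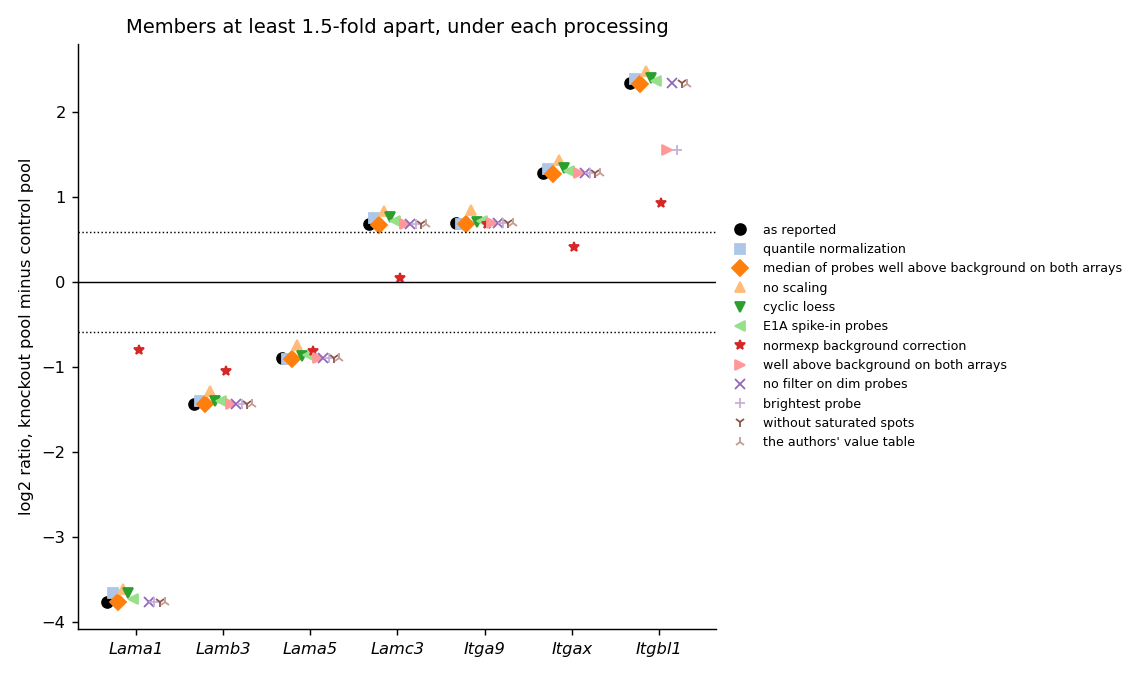
Log2 ratio, knockout minus control pool (y axis), of the 7 members past the 1.5-fold limit (x axis) as reported and under each alternative processing, 1 marker for each setting, with dotted lines at 1.5-fold. *Itga9*, *Lamb3* and *Lama5* keep within narrow ranges, whereas *Itgax* (down to 0.41), *Lamc3* (down to 0.05), *Itgbl1* and *Lama1* shift toward 0 with the normexp model. The offset of that model draws dim signals toward a ratio of 0 by construction.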

How the data were processed

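RNA from 6 left ventricles of each genotype was pooled and hybridized, in a single color (Cy3), to 1 Agilent SurePrint G3 Mouse 8x60K array, so 2 arrays were compared. The deposited intensities used here are the processed signal that the authors obtained with Agilent Feature Extraction by subtracting background. They are linear, with no scaling of 1 array to another. The version is 10.5.1.1 in the submitters' processing notes and 10.10.1.1 in the scanner output. Both arrays were, per the file headers, on the same slide and in the same scan. The authors' value table also holds linear intensities, equal to the processed signal times a constant, which on the log2 scale was 2.45 for control and 2.31 for knockout (table medians 67.2 and 64). How that constant was set is not stated in the sources used here.

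From the processed signal, log2 was taken and the 75th percentile of the noncontrol spots of the array subtracted. Neither control spots nor 269 spots marked as outliers on either array entered, and none of the 59305 noncontrol spots was saturated. Repeated spots were averaged by probe. Accessions linked 26759 of the 55676 probes to a RefSeq symbol (mouse, GRCm38.p6, a table used for names and gene order only). Gene values are means over probes called well above background on 1 array or both. Of 13862 genes, 13063 were so on both arrays, 326 on the control and 473 on the knockout array only. For the last 2 classes, a bound compares the bright array with the higher of the gene's own value on the other array and the lowest signal called well above background there, and a gene counts as past a limit only if that bound is. All 56 member probes are printed once. For 247 probes printed at least 8 times, the median SD of the log2 ratio between spots was 0.07. The number of arrays limits the precision.

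With 1 pool for each genotype no test was possible. A limit of 1.5-fold is used for description. The members and lists were chosen with earlier results of these data known, and the trimers were put together after the ratios were seen. One gene of the family is not reported here and enters no count of the members. Every measured member is named with its ratio, and of each related list the 2 highest and 2 lowest genes, with others (*Col4a1*, *Col4a2*, *Postn*, *Lgals3*, *Tnc* and *Npnt*) chosen after their values were seen. Promoter sequences and their coordinates come from a separate table of RefSeq windows of the same build, of which the 250 bases before the start were searched. Alternatives were other scalings (quantile, median, none, cyclic loess, E1A spike-in probes), normexp background correction (offset 50, on the median spot and background intensities), stricter and no filtering of dim probes, the brightest probe, no saturated spots, the value table, and limits of 1.3-fold and 2-fold. Python 3.11.15, numpy 2.4.6, pandas 2.3.3, R 4.3.3 and limma 3.58.1 were used, and the scripts were tested on simulated data.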

Additional observations from a re-analysis of the deposited data

How the results depend on the processing

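Under 11 alternatives of scaling, background and probe choice, 31 of the 36 measured members kept the sign of their log2 ratio, and 5 within 0.15 of 0 (*Itga6*, *Itgb4*, *Itgb6*, *Lama3* and *Lamb1*) took the other sign under at least 1. The median log2 ratio of the members, 0.16, was 0.31 without scaling, which adds 0.15 to every ratio, and 0.081 with the normexp model. The counts of 4 members at least 1.5-fold higher and 3 lower were the same with quantile, median, cyclic loess and spike-in scaling and with the brightest probe. Leaving out saturated spots could alter nothing, as there were none, and the value table differs from the processed signal by a constant that scaling removes. With the normexp model 2 were higher (*Itga9* and *Itgbl1*) and 3 lower, against 369 and 248 of all genes. Without scaling 6 were higher, *Itga11* and *Itgb7* being added, and 3 lower, against 1342 and 533 of all genes. With no filter on dim probes 5 were higher, *Itgal* being added, and 5 lower, *Itgb8* and *Lama3* being added, against 1471 and 1621 of 20282 genes. With only single probes well above background on both arrays kept, 4 were higher and 2 lower, against 622 and 558 of 13057 genes. *Lama1* had no such probe, and the ratio of *Itgbl1* was 1.55 from 1 probe. A limit of 1.3-fold gave 7 members higher and 3 lower, against 1598 and 1647 of all genes, and a limit of 2-fold gave 2 and 2, against 336 and 287. No paired analysis was possible because each genotype has 1 array, and no replicate could be left out. Signals near background limit *Itgax*, *Lamc3*, *Lama1* and the second probe of *Itgbl1*.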

Other observations

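Of the 56 probes of members, 9 were not well above background on either array and entered no value of the report. Among them, the second probe of *Itgal* had a processed signal of 2.85 in the control and 12.7 in the knockout array, and the second probe of *Lama3* had 5.16 and 2.62.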
